A study of Mus musculus and other sequences with 2 samples.

Results

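The 10 microRNAs (miRNAs) described here are known from blood and immune cells. They are mmu-miR-142-3p, mmu-miR-142-5p, mmu-miR-144, mmu-miR-451, mmu-miR-486, mmu-miR-223, mmu-miR-150, mmu-miR-155, mmu-miR-146a and mmu-miR-146b, chosen by name from the assays of a TaqMan RT-qPCR array and without the minor arms, which the array marks with #. Because mmu-miR-223 was assayed on both array cards, they had 11 assays, of which card A held 9 and card B held 2, among 750 miRNA assays in all. Conditioned media came from a microdroplet of 8 μL in which 25 CD1 mouse blastocysts were kept between 99 and 116 h after hCG injection, with zygotes from superovulated females, 3 weeks old by the labels, mated with CD1 males, and the blastocysts were removed before sampling. Blank media was an equivalent microdroplet without embryos, kept for the same 17 h. Both were KSOM without BSA, in which the labels name 0.1% polyvinylacetate, and 6 μL of each was lysed and assayed without RNA extraction. Each condition was a single sample, embryos were pooled, and no test between the media was possible. The value of an assay is its Ct, the cycle at which fluorescence crosses a threshold. The scale is inverted and logarithmic, so that a Ct lower by 1 cycle stands for about a doubling of template.

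A miRNA is cut from a hairpin transcript and guides Argonaute proteins to mRNAs that pair with its seed, bases 2 to 8 from the 5′ end. Blood lineages carry characteristic sets of these sequences. Both arms of the miR-142 hairpin are known from nearly all haematopoietic cells, miR-144 and miR-451 are made together in erythroid cells, miR-223 is abundant in granulocytes and monocytes, and miR-150 in mature lymphocytes. Pre-implantation embryos hold no blood cells, and the sequences are here of interest as a group that was measured in media with and without embryos.

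Mature sequences are shown because arms, family members and repeated assays of the same miRNA gave different Ct values. RefSeq sequences of the mouse assembly GRCm38.p6 were matched to 8 of the 10 names, taking a name without an arm as the arm that carried it before arms were named. Capitals mark the seed.
miR-142-3p: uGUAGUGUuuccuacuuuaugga
miR-142-5p: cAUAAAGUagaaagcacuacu
miR-144: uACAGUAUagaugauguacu
miR-451: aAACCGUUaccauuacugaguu
miR-223: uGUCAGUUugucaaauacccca
miR-155: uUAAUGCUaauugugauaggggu
miR-146a: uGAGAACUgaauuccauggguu
miR-146b: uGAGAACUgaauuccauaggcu

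Of these 8 sequences, 5 lie on chromosome 11. The arms of miR-142 lie on the plus strand at chr11:87756867-87756887 for miR-142-5p and chr11:87756903-87756925 for miR-142-3p, in the hairpin of the Mir142 gene. The hairpins of Mir144 and Mir451a lie on the plus strand of the same chromosome with 99 bases between them, and their mature sequences are at chr11:78073047-78073066 and chr11:78073186-78073207. Outside chromosome 11, miR-223 is at chrX:96242884-96242905, miR-155 at chr16:84714143-84714165 and miR-146b at chr19:46342790-46342811, all on the plus strand. The only seed that 2 of the 8 shared was that of miR-146a, at chr11:43374435-43374456 on the minus strand, and miR-146b. These were equal at 20 of 22 positions and differed by G18A and U21C, with the base of miR-146a first and positions counted from the 5′ end.

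Error between wells was taken from U6, a small nuclear RNA spotted in 4 wells per card. For each card and medium, these wells drew on the same reverse transcription, so their spread leaves out error between such reactions. With embryos, U6 had a Ct between 19.0 and 21.3, and detected members other than miR-155 had one of 23.6 or later. Whether wells with a later Ct vary as little was not tested. Multiples of the error given below thus refer to the spread of U6 wells only. From the SDs of the U6 wells in the 2 media, the error of a difference between single wells was 3.29 cycles for card A and 0.86 for card B. The value for card A rested on 1 well of blank media with a Ct of 20.2 beside 3 between 26.3 and 27.1, and was 0.83 without it, a choice made after seeing the data. U6 itself differed between the media, by -4.08 cycles on card A and by -7.07 on card B (conditioned minus blank), so that differences taken relative to U6 are later by these amounts. Other control RNAs had a Ct only with embryos, namely snoRNA135 and snoRNA202 on both cards, U87 on card A and Y1 on card B. Whether U6 is a fit reference between these media was not tested. Values relative to U6 thus show how a difference depends on scaling, and not that a member is lower with embryos. Over all miRNA assays with a Ct below 35 in both media, the median difference was -0.12 cycles for card A and 0.25 for card B. The study also set a limit on ΔRn, the rise of the fluorescence, which was not used here, so that all detection below rests on Ct alone and how many assays that limit would remove was not tested.

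The blood and immune cell miRNAs were detected as often in blank media as in conditioned media. At a Ct below 35, 8 of the 11 assays were detected in blank media, compared with 29.1% of all 750 miRNA assays. In conditioned media 8 of 11 were also detected, compared with 37.3% of all. Both media gave a Ct below 35 for 7 (23.5% of all assays did so), conditioned media alone for 1 (13.9% of all) and blank media alone for 1 (5.6% of all). On card A, which held 9 of the assays, 7 were detected in each medium, beside 32.6% of all assays of that card in blank media and 39.8% in conditioned media. Among the 567 mouse assays of major arms, the kind to which all 11 belong, 181 (31.9%) were detected in blank media and 227 in conditioned media. No member had a Ct later than 32.4, so that a limit later than 35 changed none of these counts.

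**Figure D1:**
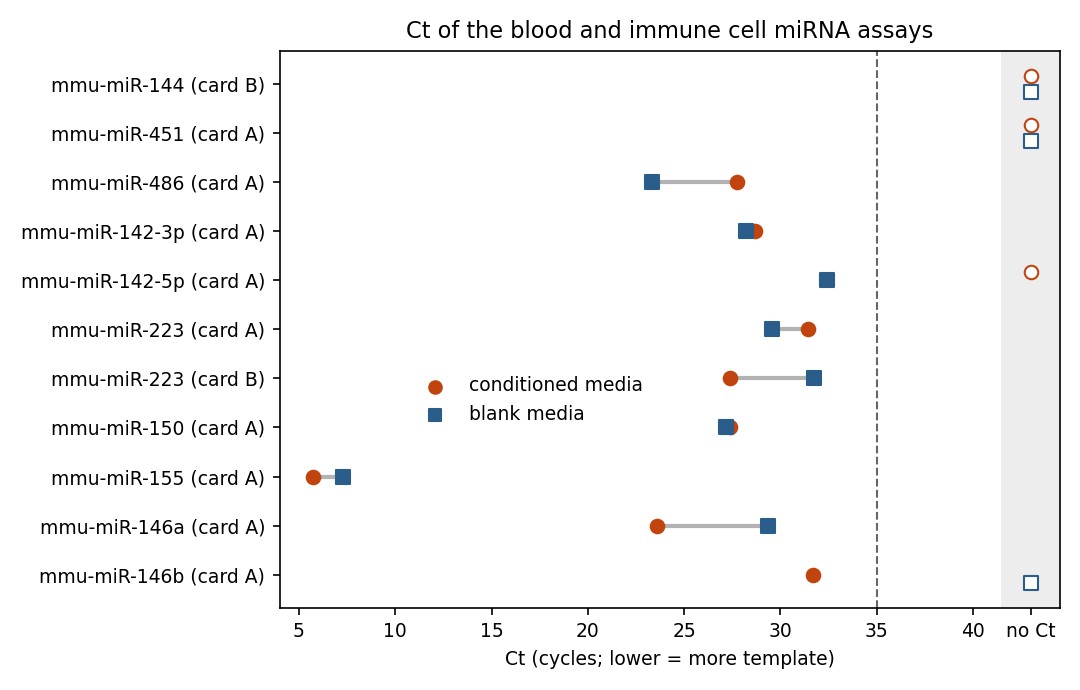
Ct in cycles of each of the 11 assays in conditioned media (circles) and blank media (squares), 1 well each, with the limit of 35 as a dashed line and wells without a Ct as open symbols at the right. The lines of miR-486 and miR-146a are the longest and run in opposite directions, and miR-144 and miR-451 had no Ct in either medium.

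Of the erythroid sequences, miR-486 had a Ct in both media and the other two had none in either. miR-451, which is processed by Argonaute 2 in place of Dicer and is abundant in red cells, gave no Ct with embryos or without. Its neighbour miR-144, on card B, likewise gave none. miR-486, known from erythroid cells and from muscle, had a Ct of 27.7 with embryos and 23.3 without. It was the second earliest of the members in blank media, and 4.38 cycles later in conditioned media. This exceeded the error of a difference on card A, by 1.33 times with all U6 wells and by 5.24 times without the early well. Relative to U6 the difference was larger, 8.46 cycles. The 1 of 3 erythroid assays detected in each medium is a share near that of all 750 assays, 29.1% and 37.3%.

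The arms of the miR-142 hairpin, a marker of haematopoietic cells in general, differed in detection. miR-142-3p had a Ct of 28.7 with embryos and 28.2 without. The gap of 0.48 cycles was smaller than either error of a difference. Relative to U6 it was 4.56 cycles, or 6.16 without the early U6 well. The shift of U6 has an error of its own, so that these values are not set against the error of a single difference. miR-142-5p gave no Ct with embryos and 32.4 without, where it was 4.21 cycles later than miR-142-3p. It was the only member detected in blank media only, and each arm was measured with its own assay, whose efficiency is unknown.

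miR-223, a regulator of granulocyte differentiation, was measured by 2 assays with opposite results. On card A, its Ct was 31.4 with embryos and 29.5 without, later with embryos by 1.90 cycles. On card B, its Ct was 27.4 with embryos and 31.7 without, earlier with embryos by 4.35 cycles as deposited but later relative to U6. The card A well was 4.07 cycles later than the card B well in conditioned media and 2.18 earlier in blank media, so that the order of the assays turned between the media. The 2 differences lay 6.25 cycles apart, against an error of 3.40 from U6, or 1.20 without the early U6 well. The array held 26 names with 2 assays. Besides miR-223, 5 such gaps within a sample had both wells at a Ct from 15 to below 35. They ranged from 1.25 to 7.42 cycles with a median of 3.40, a range that holds both gaps of miR-223. Pairs with an earlier or undetected well were left out, such as miR-217 in blank media, with a Ct of 29.4 on card A and 14.7 on card B. Relative to U6 of each card, both assays were later in conditioned media, by 5.98 cycles for the card A assay and 2.72 for the other.

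miR-150, a lymphocyte miRNA that represses the transcription factor Myb, had nearly the same Ct in both media as deposited, and was 4.34 cycles later with embryos relative to U6. The Ct was 27.4 with embryos and 27.2 without, a gap of 0.25 cycles that lay within either error. Its minor arm, assayed as miR-150# on card B, had a Ct of 23.2 with embryos and 22.7 without, a gap of 0.48 cycles that was also within the error of that card and became 7.55 relative to U6. The assay of the minor arm was the earlier of the pair in both media, by 4.23 and 4.45 cycles. These wells were on different cards and had different reverse transcription and pre-amplification reactions. The RefSeq sequence of that arm, at chr7:45121798-45121819 on the plus strand, is shown with its seed in capitals for this reason.
miR-150-3p: cUGGUACAggccugggggauag

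miR-155, which is induced in activated lymphocytes and macrophages, stood apart from all other members in both media. Its Ct was 5.74 with embryos and 7.26 without. Ranked by Ct among detected assays of card A, it was the earliest of 149 in conditioned media and number 4 of 122 in blank media. The next member was 17.9 cycles later in conditioned media and 16.1 later in blank media. Ct values under 15 were found for 44 assays in conditioned media and 48 in blank media, 22 of them in both, and miR-155 was the only member among these. On card A, U6 wells of conditioned media had a Ct between 19.9 and 21.3. Whether a Ct under 15 stands for template was not tested. The distance of miR-155 from the other members is thus not read as an amount of template. The difference of -1.52 cycles lay within the error of 3.29 on card A and beyond that of 0.83, and it turned to 2.56 relative to U6.

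miR-146a and miR-146b, which share a seed and are known to repress the signalling proteins Traf6 and Irak1, gave the most negative difference between the media and the only detection with embryos alone. miR-146a had a Ct of 23.6 with embryos and 29.4 without. The difference of -5.75 cycles was 1.75 times the error of card A with all U6 wells and 6.88 times without the early well, and it was the 13th most negative of the 176 assays detected in both media. Relative to U6 it kept its sign but shrank to -1.66 cycles, and to -0.07 when the early U6 well was left out. miR-146b had a Ct of 31.7 with embryos and none without, the only member detected in conditioned media only. In conditioned media it was 8.09 cycles later than miR-146a, whose sequence differs by the substitutions given above.

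A rat-named assay of miR-146b and the minor arm of the mouse hairpin were also on card B. The array does not state which arm the rat-named assay reads. rno-miR-146B had a Ct of 23.3 with embryos and 27.4 without, and its difference of -4.04 cycles exceeded the error of 0.86 on that card but turned to 3.04 relative to U6. In conditioned media it was 8.36 cycles earlier than the mouse assay of miR-146b, and in blank media it had a Ct where the mouse assay had none. miR-146b# was undetermined in both media. Detection of miR-146b in conditioned media only thus held for the mouse assay and not for the rat-named one.

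Among the 7 assays detected in both media, 3 were at least 1 cycle earlier in conditioned media, namely miR-146a, miR-155 and miR-223 on card B, the last 2 of which turned relative to U6. The same held for 36.4% of all 176 assays detected in both media. Another 2 were at least 1 cycle later, namely miR-486 and miR-223 on card A, compared with 35.8% of all, and miR-142-3p and miR-150 differed by less. The median of the 7 differences was 0.25 cycles, within a range from -5.75 to 4.38, and that of all 176 was 0.05. With wells of a Ct under 15 left out, and miR-155 with them, 2 members were earlier by 1 cycle or more and the median of the members was 0.37 cycles. The shares and the median of all 176 assays include such wells. Relative to the mean of U6, 1 of the 7, miR-146a, was earlier in conditioned media by 1 cycle or more and the other 6 were later, while relative to the median of U6 or without its early well 0 were earlier by that much.

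**Figure D2:**
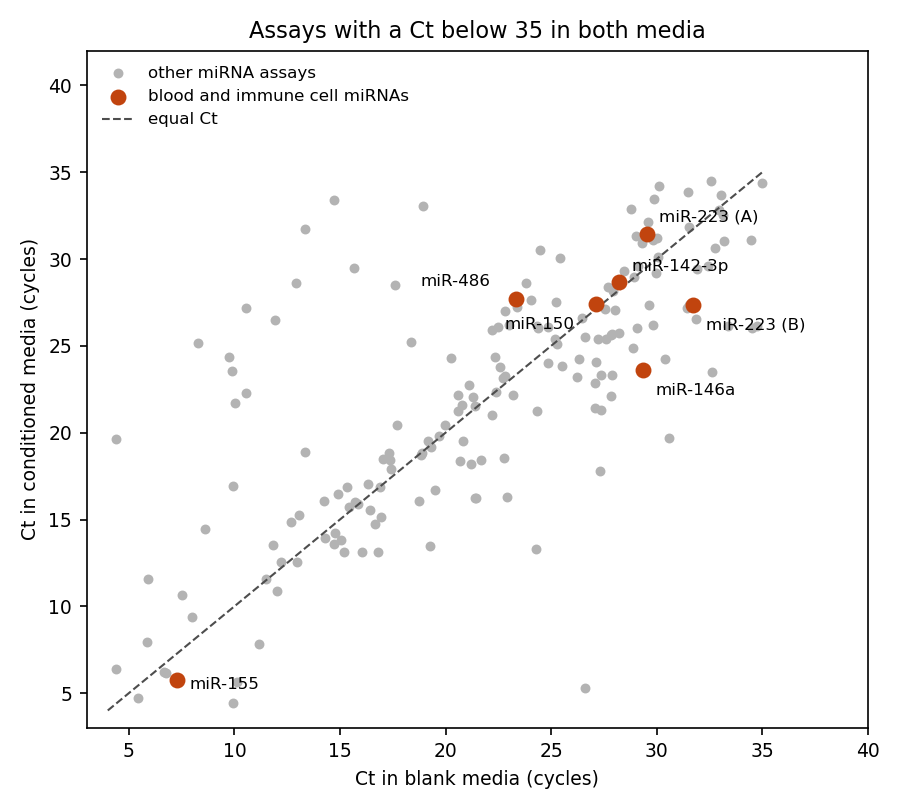
Ct in conditioned media against Ct in blank media, in cycles, for the 176 assays with a Ct below 35 in both media, with the 7 assays of blood and immune cell miRNAs in red and equal Ct as a dashed line. miR-150 and miR-142-3p lie near the line, miR-486 and miR-223 of card A above it, and miR-146a, miR-155 and miR-223 of card B below it, with miR-155 far from the rest at the lower left.

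**Figure D3:**
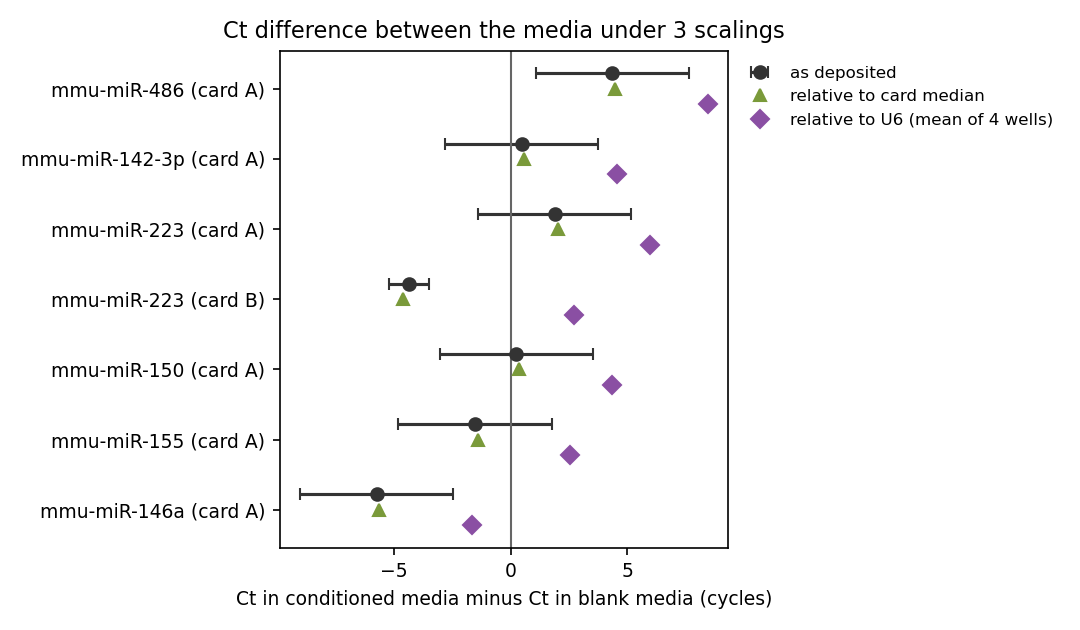
Ct in conditioned media minus Ct in blank media, in cycles, for the 7 assays detected in both media, as deposited (circles, with the error of a difference from U6 wells as bars), relative to the card median of all assays detected in both media (triangles) and relative to the mean of U6 (diamonds). The circles of miR-486, miR-146a and miR-223 on card B are the ones whose bars do not reach 0, and miR-155 and miR-223 on card B change sign relative to U6.

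The order of the members by Ct differed between the media, though Ct values of different assays also depend on the efficiency of each. In conditioned media, miR-155 was followed by miR-146a at 23.6, and then by miR-223 on card B, miR-150, miR-486 and miR-142-3p between 27.4 and 28.7. The steps between these 4 were 0.03, 0.32 and 0.98 cycles, of which only the last exceeded the SD of U6 wells of card A in that sample, 0.68. miR-223 on card A and miR-146b came last, 0.26 cycles apart, which is also within that SD. In blank media, miR-155 was followed by miR-486 at 23.3 and, 3.80 cycles later, by miR-150. From miR-150 on, miR-142-3p, miR-146a, miR-223 on card A, miR-223 on card B and miR-142-5p followed in steps of 0.19 to 2.18 cycles. The SD of U6 wells of card A in blank media, 3.22, exceeded each of these steps, and without the early well, at 0.49, it exceeded only that of 0.19 between miR-146a and miR-223 on card A. In both media these SDs are of single wells, and a step between 2 wells has a larger error. Steps to or from miR-223 on card B also lie between cards, which the SD of card A does not cover. The median Ct of the detected members was 27.6 with embryos and 28.8 without, later in both than the 25.5 and 22.8 of all detected assays. These medians include the wells with a Ct under 15.

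Another 14 miRNAs that blood cells also hold, without being restricted to them, had 1 assay each on card A. Conditioned media gave a Ct below 35 for 10 of these and blank media for 6, which were among the 10. The 4 detected in conditioned media only were miR-16, miR-126, miR-342-3p and miR-339-3p, with a Ct of 27.3, 27.7, 30.3 and 31.96, and each was undetermined in blank media. Of the 6 detected in both, 3 were at least 1 cycle earlier in conditioned media (miR-24, miR-191 and miR-363) and 2 later (miR-210 and miR-222). The well of miR-222 in blank media had a Ct of 13.4, under 15, so that its difference is not read as an amount of template. Relative to the mean of U6, miR-24 and miR-363 turned to later and miR-191 differed by only -0.13 cycles. The other 4, miR-21, miR-181c, miR-185 and miR-221, had no Ct below 35 in either medium.

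Lists of miRNAs known from other tissues were counted in the same way. For liver and pancreas, 6 of 8 assays were detected in blank media and 3 of 8 in conditioned media, and miR-122, the most abundant miRNA of hepatocytes, was undetermined in both. These 8 assays hold 7 names, as miR-217 was on both cards and was detected on both in blank media. There miR-375 had a Ct of 34.0, near the limit. For muscle, 2 of 7 were detected in blank media and 3 of 7 in conditioned media. For neural miRNAs, 4 of 12 were detected in each. Without wells of a Ct under 15, the neural counts were 3 in blank media and 2 in conditioned media, those of liver and pancreas 5 and 2, and those of the blood and immune cell miRNAs 7 and 7. In blank media the share of blood and immune cell miRNAs was thus close to that of the liver and pancreas list, at 72.7% and 75.0%, and in conditioned media it was close to that of the other blood-related miRNAs, at 72.7% and 71.4%. With 1 sample of each medium, these counts describe 2 microdroplets, and the difference between lists was not tested. RNA of more cells and more RNA per cell cannot be told apart in media, and the origin of the signal in blank media was not tested.

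**Figure D4:**
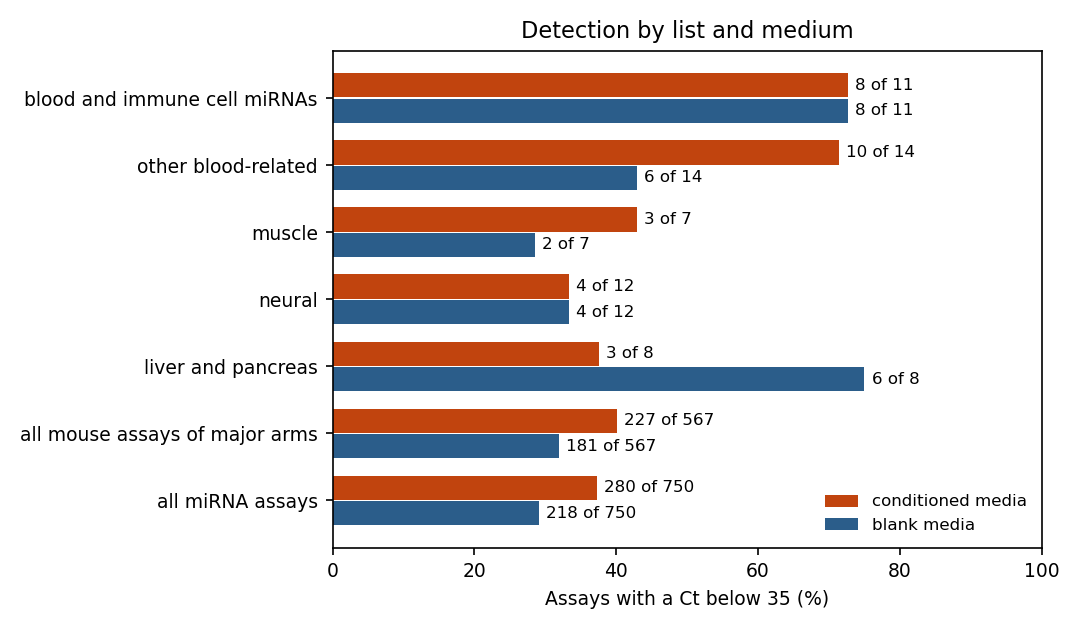
Share of assays with a Ct below 35, in percent, in conditioned media (red) and blank media (blue), with the count of assays beside each bar; the 2 lowest groups are all mouse assays of major arms and all 750 miRNA assays. The blood and immune cell miRNAs were at 8 of 11 in both media, and liver and pancreas miRNAs at 6 of 8 in blank media and 3 of 8 in conditioned media.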

How the data were processed

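Media with and without blastocysts were profiled in 1 sample each with the 2 cards of a TaqMan rodent array for miRNAs, after 12 cycles of pre-amplification. The deposited values are Ct per well as the authors' instrument software gave it, with no normalization and with the word undetermined where there was none. The threshold and baseline behind a Ct were not given in the sources used here. A deposited table of fold changes holds the authors' own comparison and was not used. Counts leave out 18 control wells. An assay was taken as detected if its Ct was below 35, and not if undetermined or later. Differences between the media (conditioned minus blank) were described without a test. The error of a difference is the root of the summed squares of the SDs of 4 U6 wells per card in each medium.

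The members, the comparison lists and the named sequences (all members, the other arms and rat-named assays of their hairpins, and controls) were chosen with earlier results of these data known. Names singled out in the comparison lists were chosen after their values were seen. Alternatives were a limit of 32, of 38 or none on the Ct, wells with a Ct under 15 left out, the lowest Ct of each name, rat-named assays or minor arms counted, and differences relative to U6 or to the card median; card A alone and U6 without 1 well were added after seeing the data. The counting was tested on simulated data for 750 assays, where 7 of 7 checks passed. Python 3.11.15, pandas 2.3.3, numpy 2.4.6 and matplotlib 3.10.9 were used.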

Additional observations from a re-analysis of the deposited data

How the results depend on the processing

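Counts of detected members were nearly the same under every alternative tried. The exception was the assay detected in blank media only, miR-142-5p, which left 0 such assays at a Ct limit of 32. Scaling to U6 changed the differences. The count of members at least 1 cycle earlier in conditioned media, 3 as deposited, was 1 relative to the mean of U6, 0 relative to its median and 0 without its early well, and the median difference of the members moved to 4.34, 5.35 and 5.93 cycles. The difference of miR-223 on card B reversed to 2.72, 2.61 and 2.72 cycles under the same 3 scalings. The median difference was -0.64 with the lowest Ct of each name or with the rat-named assay counted, beside 0.25 as deposited, so that its sign changed. This change was smaller than the error of a difference on card A with all U6 wells, 3.29 cycles, but not than that without the early well, 0.83. Both are errors of a difference between single wells, and no error of the median was estimated. In all, 57 of 64 alternative values of counts and medians stayed within 1.5 times the count or within the error of 3.29 cycles. This tally is not a measure of robustness. It includes Ct limits later than 35 and no limit, which could change no value, as no member had a Ct later than 32.4. The tally also took the median of -0.64 as unchanged. The same holds for counts of 2 and 4 members at least 1 cycle earlier, beside 3 as deposited. The card median left the sign of all 7 differences as it was. No depth can be given for Ct values, and with 1 well per assay and 1 sample per medium, precision rests on U6 wells and repeated assays alone.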
